A study of Macaca mulatta with 24 samples.

Results

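Death receptor signalling was followed in the nucleus accumbens core (NAcc) of rhesus macaques through 10 genes, namely TNFSF10, FAS, TNFRSF1A, TRADD, FADD, RIPK1, CASP8, CFLAR, XIAP and BCL2. All 10 were found by symbol among the 17208 genes of the RNA-Seq table. The set was chosen by measured values. Among the 9197 genes that averaged 10 TPM or more, CFLAR had the smallest p in heavy drinkers against controls and TNFSF10 the smallest p in low and binge drinkers against controls. Among the 13637 genes that averaged 1 TPM or more they ranked 6 and 2 in these comparisons. The other members were taken as their partners in the pathway. Differences of the members in those comparisons are therefore given as a description, without a test. TPM are transcripts scaled to a fixed total. Of the 10 genes, 9 averaged 1 TPM or more and entered the tests, and FAS, at a mean of 0.410 TPM, did not.

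The animals were 24 unrelated adult male rhesus macaques (Macaca mulatta) that obtained their fluids from operant panels, first under schedule-induced polydipsia and then with daily open access to ethanol and water for about a year. Tissue was collected without imposed abstinence, and each animal gave 1 library. The 8 controls were housed with the drinkers of their cohort and followed the same schedule with water in place of ethanol and a maltose dextrin solution to match calories. The low drinkers, labelled LD and written LD* here, pool the light and the binge category. These 8 animals took 1.58 ± 0.53 g/kg of ethanol a day (mean ± SD). The 8 heavy drinkers, written HD*, took 3.14 ± 0.33 g/kg a day. They comprised 4 animals labelled HD, at 2.74 to 3.09 g/kg, and 4 labelled VHD, at 3.09 to 3.78 g/kg. Drinking category followed each animal's own intake and was not assigned, and categories were unevenly spread over cohorts. Controls numbered 3 in cohort 5, 2 in cohort 7a and 3 in cohort 7b. LD* animals numbered 2 in cohort 4, 3 in cohort 7a and 3 in cohort 7b, and HD* animals came from cohort 5, with 4, and from cohort 7a, also with 4.

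Death receptors are membrane proteins of the tumour necrosis factor receptor family whose bound ligands gather adaptor proteins on the inner side of the membrane. The adaptors bring together molecules of caspase-8, which then activate one another and can start apoptosis, while a catalytically inactive relative of caspase-8, encoded by CFLAR, takes their place in the complex and holds them back. In brain the same receptors also signal through RIPK1 to NF-kappaB, and whether a cell lives or dies depends on the balance between these branches.

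The total of the values was between 999998 and 1000000 in every animal, and sequencing depth cannot be read from it. TPM is by definition corrected for transcript length, and on that basis levels of different genes are set side by side. How that correction was made here is not given, and the fixed total does not show it. Differences were taken on log2(TPM + 1), where the added 1 makes those of genes with low levels smaller. Adjusted p-values are those of limma over all genes tested (Benjamini-Hochberg).

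Libraries were first compared with one another and with cell type markers. The 3 libraries with the lowest median correlation with the others were Control 6 (0.924), Control 8 (0.951) and VHD 4 (0.952), against 0.960 to 0.984 in the remaining 21. The 12 markers of striatal medium spiny neurons, led by PENK at a mean of 2638 TPM, were all above a mean of 1 TPM and summed to between 3297 and 14797 TPM in 23 animals, but to only 881 TPM in Control 6. That library had the highest sums of the 8 oligodendrocyte markers (9621 TPM) and of the 8 astrocyte markers (9313 TPM). LD 4 had the highest sum of the 4 cortical excitatory neuron markers, 834 TPM, a list led by SLC17A7. VHD 2 had the highest sum of the 19 interferon-stimulated genes, 1437 TPM against 488 to 891 TPM in the other animals. This sum averaged 661 TPM, of which IFI6 alone gave 422 TPM, and IFIT1 and XAF1 averaged under 1 TPM. Several results are also given without Control 6, Control 8 and VHD 4.

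In the order of their mean levels over 24 animals, the members were TRADD at 32.6 ± 3.97 TPM, TNFRSF1A at 29.4 ± 6.59 TPM, TNFSF10 at 19.2 ± 7.06 TPM, FADD at 11.9 ± 2.37 TPM, CFLAR at 11.8 ± 3.88 TPM, BCL2 at 4.96 ± 0.92 TPM, XIAP at 4.88 ± 1.26 TPM, RIPK1 at 4.78 ± 1.01 TPM, CASP8 at 2.18 ± 0.82 TPM and FAS at 0.410 ± 0.16 TPM (mean ± SD, n = 24). Not all neighbours in this order were apart. TRADD exceeded TNFRSF1A in 16 of 24 animals, FADD exceeded CFLAR in 15, BCL2 exceeded XIAP in 14 and XIAP exceeded RIPK1 in 11, so these pairs lay within the spread between animals. TNFSF10 exceeded FADD in 19 animals, TNFRSF1A exceeded TNFSF10 in 22 and RIPK1 exceeded CASP8 in 23, while CFLAR exceeded BCL2, and CASP8 exceeded FAS, in all 24. The inhibitor transcript CFLAR was thus above that of the caspase it restrains in every animal, with a lowest CFLAR value of 5.04 TPM and a highest CASP8 value of 4.32 TPM. Relative to the mean, TRADD varied least among animals, with a coefficient of variation of 12.2%, and FAS, CASP8 and TNFSF10 varied most, at 38.2%, 37.5% and 36.7%.

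**Figure D1:**
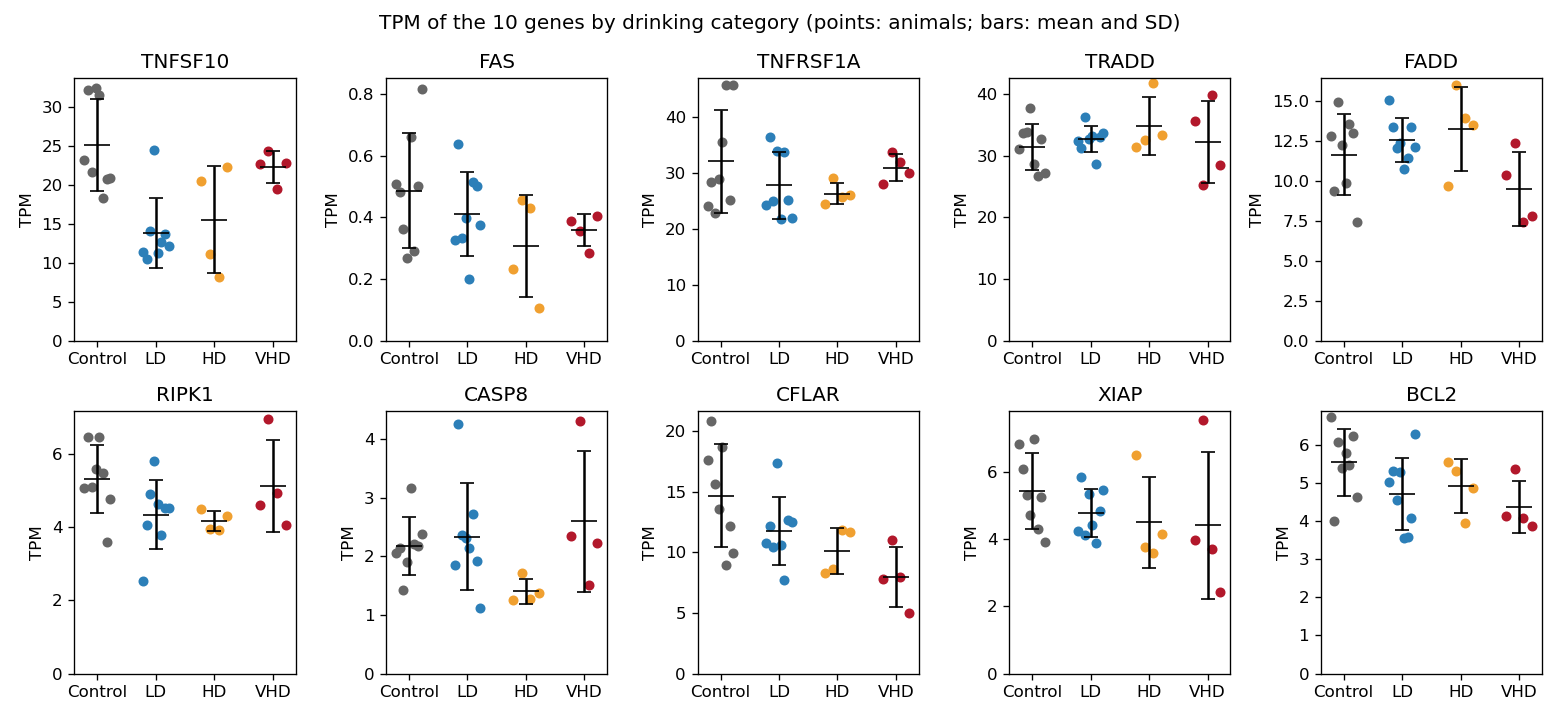
TPM (vertical axis, starting at 0 in each panel) of the 10 genes in 8 control, 8 LD, 4 HD and 4 VHD animals; points are animals and bars the mean and SD. In the TNFSF10 panel 7 of 8 LD animals lie between 10.5 and 14.1 TPM and LD 4 at 24.5 TPM, and in the CFLAR panel all HD and VHD animals lie at or under 11.8 TPM.

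TNFSF10 encodes TRAIL, the ligand of the death receptors TNFRSF10A and TNFRSF10B. In the 8 controls TNFSF10 ran from 18.2 to 32.4 TPM with a median of 22.4 TPM. In LD* animals it ran from 10.5 to 24.5 TPM with a median of 12.3 TPM, and in HD* animals from 8.18 to 24.3 TPM with a median of 21.3 TPM. The controls fell into 5 animals between 18.2 and 23.1 TPM and 3, Control 2, Control 4 and Control 5, between 31.5 and 32.4 TPM. Of the LD* animals 7 of 8 lay below every control, a pattern found in 0.125% of the 13637 genes, from which nothing is read because that comparison chose the gene; the exception was LD 4. The 4 HD animals had 20.4, 11.1, 8.18 and 22.2 TPM, and the 4 VHD animals 22.6, 24.3, 19.4 and 22.7 TPM. The HD animals were thus split between a low pair and a pair at the level of the lower controls, whereas the VHD animals lay close together.

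The log2 difference of TNFSF10 from controls was −0.83 (SE 0.20) in LD* animals and −0.44 (SE 0.20) in HD* animals. Without Control 6, Control 8 and VHD 4 the differences were −0.94 (SE 0.22) and −0.59 (SE 0.22). With 1 animal left out the HD* difference ran from −0.50 to −0.29. The LD* difference appeared in both cohorts that held LD* animals and controls. Nothing is read from this, since the same animals served to choose TNFSF10. In cohort 7a the 3 LD* animals, at 12.1 to 13.7 TPM, lay below both controls, at 20.7 and 20.9 TPM, a log2 difference of −0.66. In cohort 7b the means were 16.6 and 27.4 TPM, a log2 difference of −0.72. LD 4 lay inside the range of these controls only through Control 6, at 18.2 TPM, and without that library all 3 LD* animals lay below both controls, with a difference of −0.97. The 2 LD* animals of cohort 4, which has no controls, had 11.4 and 10.5 TPM.

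Most other ligands of the family had low levels. FASLG averaged 0.150 TPM, TNF 0.389 TPM, LTA 0.0435 TPM and TNFSF15 0.105 TPM over the 24 animals. TNFSF12, which encodes TWEAK, was the exception and the most abundant of the 6 ligands at 28.7 TPM. TNFSF10 and TNFSF12 were the only ligands of the list to reach a mean of 1 TPM.

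Receptors for these ligands differed widely in level. TNFRSF1A, the main receptor for TNF, ran from 22.9 to 45.6 TPM in controls with a median of 28.6 TPM, from 21.8 to 36.4 TPM in LD* animals with a median of 25.0 TPM, and from 24.5 to 33.8 TPM in HD* animals with a median of 28.5 TPM. Its highest values were those of Control 6 and Control 8, both at 45.6 TPM, and without these libraries the control range ended at 35.5 TPM. FAS, the receptor for FASLG, was weakly expressed in every group, with 0.267 to 0.815 TPM in controls, 0.201 to 0.639 TPM in LD* animals and 0.107 to 0.458 TPM in HD* animals. The receptors of TRAIL were close to the threshold, TNFRSF10A at a mean of 1.01 TPM and TNFRSF10B at 1.07 TPM, and the decoy receptor TNFRSF10C stood at 0.0506 TPM. The most abundant receptor was TNFRSF21 (death receptor 6), at 39.0 TPM.

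TRADD, the adaptor of TNFRSF1A, was the steadiest member, with 26.7 to 37.7 TPM in controls, 28.8 to 36.4 TPM in LD* animals and 25.2 to 41.8 TPM in HD* animals. FADD, the adaptor that recruits caspase-8, had 7.41 to 14.9 TPM in controls, 10.7 to 15.1 TPM in LD* animals and 7.43 to 15.99 TPM in HD* animals. RIPK1, the kinase at the branch between survival and death, had 3.59 to 6.48 TPM in controls, 2.53 to 5.82 TPM in LD* animals and 3.93 to 6.95 TPM in HD* animals. The ranges of the 3 groups overlapped for each of these genes. CASP8, the initiator caspase, had medians of 2.16, 2.23 and 1.61 TPM in controls, LD* and HD* animals. Its highest values, 4.32 TPM in VHD 2 and 4.26 TPM in LD 2, stood well above the remaining animals, which ended at 3.18 TPM.

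CFLAR encodes c-FLIP, the inhibitor that competes with caspase-8 for FADD. In the 8 controls CFLAR ran from 8.93 to 20.9 TPM with a median of 14.6 TPM, in LD* animals from 7.71 to 17.4 TPM with a median of 11.5 TPM and in HD* animals from 5.04 to 11.8 TPM with a median of 8.47 TPM. The 4 HD animals had 8.31, 8.63, 11.8 and 11.7 TPM and the 4 VHD animals 7.82, 11.0, 7.99 and 5.04 TPM. Of the 8 HD* animals 5 lay below every control, which was seen for 3.23% of genes; nothing is read from this, since the comparison chose the gene. The lowest control values were those of Control 6 (8.93 TPM) and Control 8 (9.94 TPM), and the lowest HD* value was that of VHD 4. Without these 3 animals the 6 controls had 12.2 to 20.9 TPM and the 7 HD* animals 7.82 to 11.8 TPM, so that the ranges no longer overlapped. That held for 6 of the 13637 genes, or 0.044%. Nothing is read from this either, since the comparison chose CFLAR and the animals left out held its lowest control and HD* values.

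The log2 difference of CFLAR between HD* animals and controls was −0.63 (SE 0.18), and −0.71 (SE 0.15) without the 3 animals. Between LD* animals and controls it was −0.28 (SE 0.18), and −0.46 (SE 0.15) without them. Inside the 2 cohorts with LD* animals and controls this LD* difference was −0.035 in cohort 7a and −0.076 in cohort 7b, and with these cohorts alone it was −0.079. Without Control 8, which leaves 1 control in cohort 7a, and Control 6, which leaves 2 in cohort 7b, it was −0.17 and −0.33. For HD* animals the values were as follows. In cohort 5 the 4 HD* animals, at 7.82 to 11.0 TPM, lay below the 3 controls, at 15.7 to 20.9 TPM. The log2 difference was −0.94, and 2.55% of genes had every HD* animal below every control there. Nothing is read from this share, since these animals were part of the comparison that chose CFLAR. In cohort 7a the 4 HD* animals had 5.04 to 11.8 TPM and the 2 controls 9.94 and 12.2 TPM, with overlap and a log2 difference of −0.31, or −0.21 without Control 8 and VHD 4. The interaction, cohort 7a minus cohort 5, was 0.63 (SE 0.38) and did not pass the test (limma, adjusted p = 1.00; 0% of all genes passed, and 294 had an unadjusted p under 0.05). For TNFSF10 it was 0.12 (SE 0.51, adjusted p = 1.00), and −0.011 without Control 8 and VHD 4, the animals of these cohorts among the 3. The CFLAR interaction was 0.73 without these animals, which leaves 1 control in cohort 7a. Nothing is read from either interaction, since animals of the comparisons that chose these genes entered it. In the controls of the cohorts CFLAR averaged 18.1 TPM in cohort 5, 11.1 TPM in cohort 7a and 13.7 TPM in cohort 7b.

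XIAP, an inhibitor of caspases, had 3.90 to 6.97 TPM in controls, 3.87 to 5.85 TPM in LD* animals and 2.42 to 7.52 TPM in HD* animals, with medians of 5.27, 4.63 and 3.86 TPM. The HD* animals spanned the whole range of the series, VHD 4 having the lowest and VHD 2 the highest value. BCL2, which keeps mitochondria from releasing cytochrome c, had 4.00 to 6.72 TPM in controls, 3.56 to 6.28 TPM in LD* animals and 3.86 to 5.56 TPM in HD* animals.

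Over the 9 members tested, 8 were lower in HD* animals than in controls, where 77.8% of all genes were lower, and 6 were lower in LD* animals than in controls, where 58.1% of all genes were lower. The median log2 difference of all genes in HD* animals against controls was −0.12, and a rescaling of libraries by a trimmed mean of log ratios (TMM) brought it to 3.6e-05. With that rescaling CFLAR (−0.51), TNFSF10 (−0.31), XIAP (−0.16), BCL2 (−0.099), RIPK1 (−0.050) and CASP8 (−0.039) were still lower in HD* animals and TRADD (0.21) higher, while FADD (0.079) and TNFRSF1A (0.011) turned from lower to higher. In LD* animals against controls no member turned direction with it, TNFSF10 standing at −0.79 and CFLAR at −0.23. Without the 3 animals that stood apart TNFRSF1A was at 0.052 in HD* and 0.0022 in LD* animals, where it had been at −0.12 and −0.18, and TRADD in LD* animals was at −0.0084, where it had been at 0.060. TNFRSF1A in LD* animals moved the other way, to −0.30 with cohort as a covariate and −0.40 with shared cohorts only, while in HD* animals it stood at −0.048 and 0.0087. CASP8 in LD* animals turned from 0.040 to −0.028 and −0.13 in the same 2 settings. At an adjusted p under 0.05, 0% of all genes passed in either comparison (limma). An unadjusted p under 0.05 was seen for 775 genes in HD* and 387 in LD* animals. The study tested counts with DESeq2 and did call genes for HD* animals against controls at a false discovery rate under 0.05. It called none for LD* animals against controls. Why the tests differ was not tested.

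**Figure D2:**
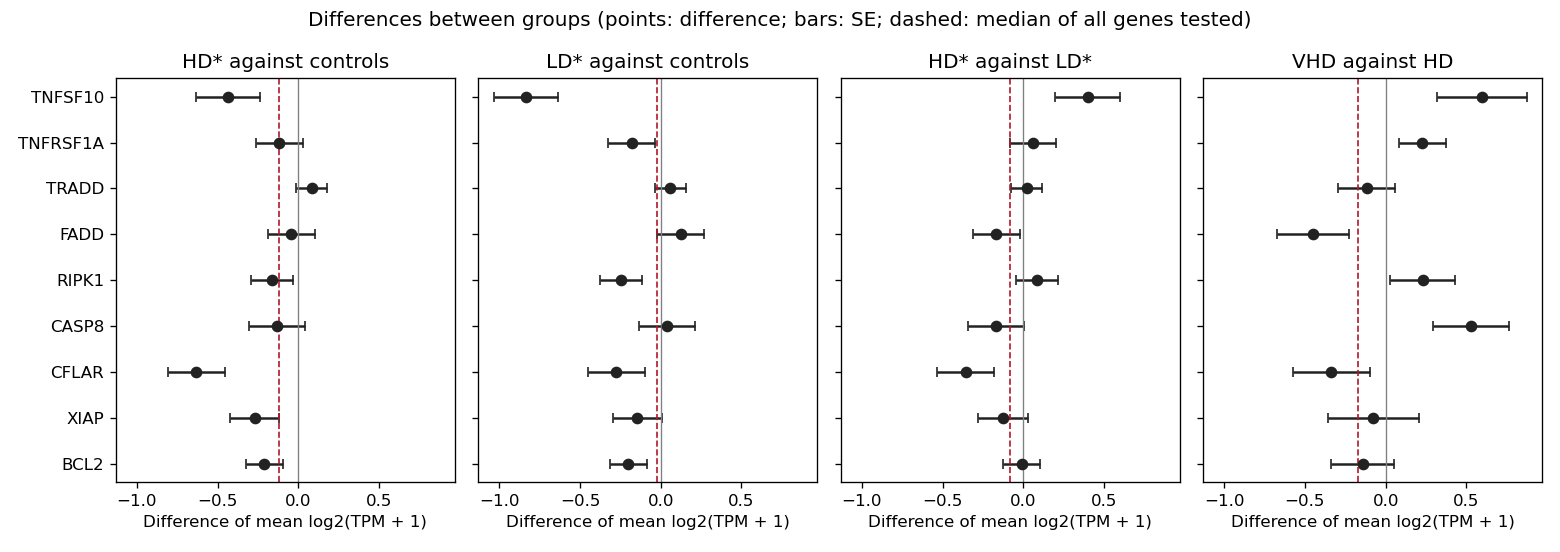
Differences of mean log2(TPM + 1) (horizontal axis) of the 9 tested members in 4 comparisons; points are differences, bars the SE, and the dashed line the median of all 13637 genes, which was −0.12 for HD* against controls. CFLAR lies farthest left in HD* against controls (−0.63) and TNFSF10 in LD* against controls (−0.83), the comparisons that chose them; with TMM rescaling FADD and TNFRSF1A turned direction in HD* against controls, BCL2 in HD* against LD*, and BCL2, TRADD and XIAP in VHD against HD.

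HD* and LD* animals were then compared directly, in the same model and with the same animals as above, so that this test is not independent of the comparisons that chose CFLAR and TNFSF10. TNFSF10 was 0.40 higher in HD* animals (SE 0.20, limma adjusted p = 0.937) and CFLAR differed by −0.36 (SE 0.18, adjusted p = 0.937). The other members lay between −0.17 for CASP8 and 0.086 for RIPK1, and with cohort as a covariate between −0.25 for XIAP and 0.26 for TNFRSF1A, with CASP8 at −0.033. With the shared cohort only, XIAP was at −0.36. No member passed, as none of the 13637 genes did (0%; 147 had an unadjusted p under 0.05). Of the 9 members 5 were lower in HD* animals, against 73.3% of all genes, and BCL2, at −0.0095, stood at 0.064 after TMM rescaling. In cohort 7a, the only cohort with both groups, the log2 differences were 0.38 for TNFSF10 and −0.27 for CFLAR, with overlapping ranges, and without VHD 4 they were 0.24 and −0.044.

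Because CFLAR was lowest in HD* and TNFSF10 in LD* animals, the ratio of ligand to inhibitor was formed within each animal. The ratio of TNFSF10 TPM to CFLAR TPM ran from 1.31 to 2.38 in controls with a median of 1.69, from 0.862 to 1.63 in LD* animals with a median of 1.07 and from 0.691 to 4.51 in HD* animals with a median of 2.32. All 4 VHD animals, at 2.90, 2.21, 2.43 and 4.51, lay above every LD* animal. The HD animals, at 2.46, 1.29, 0.691 and 1.90, spanned the ranges of the LD* animals and the controls. The ratio combines genes that were chosen by their differences and was not tested.

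Within the heavy drinkers, HD and VHD animals were compared in a separate model, a contrast that had not served to choose any member. The test called 1997 of 13637 genes (14.6%), with 441 higher and 1556 lower in VHD animals, and 0 of 9 members, of which 1, CASP8, had an unadjusted p under 0.05. The count depended on single animals, being 1094 without HD 1, 681 without HD 2, 607 without HD 3, 723 without HD 4, 4651 without VHD 2 and 476 without VHD 3. With TMM rescaling, under which the median of all genes moved from −0.17 to 0.0048, the 2597 genes that passed were 1181 higher and 1416 lower.

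The member with the smallest p between VHD and HD animals was CASP8. It had 1.26, 1.71, 1.28 and 1.37 TPM in HD and 2.34, 4.32, 1.51 and 2.23 TPM in VHD animals, so that 3 of 4 VHD animals lay above all HD animals, as in 13.8% of all genes. The log2 difference was 0.53 (SE 0.24, limma adjusted p = 0.141). It passed after TMM rescaling (0.66, SE 0.19, adjusted p = 0.0361), and it was 0.32 (adjusted p = 0.182) without VHD 2, the animal with the highest CASP8 and the highest interferon-stimulated sum; over all settings tried the adjusted p ran from 0.0361 to 0.269. TNFSF10 was 0.60 higher in VHD animals (SE 0.28, adjusted p = 0.157), likewise with 3 of 4 VHD animals above all HD animals, and 0.79 higher after rescaling (adjusted p = 0.0705), but 0.35 higher without HD 3 (adjusted p = 0.398). For CFLAR the log2 difference was −0.34 (SE 0.24, adjusted p = 0.346), and −0.16 without VHD 4. Within cohorts, CFLAR was 0.12 higher in the 2 VHD than in the 2 HD animals of cohort 5. In cohort 7a it differed by −0.79. In cohorts 5 and 7a TNFSF10 differed by 0.60 and 0.59, CASP8 by 0.77 and 0.29 and FADD by −0.13 and −0.77. FADD passed only without VHD 2 (−0.58, limma adjusted p = 0.0469). The members other than CASP8, TNFSF10 and CFLAR lay between −0.45 for FADD and 0.23 for RIPK1. With TMM rescaling they lay between −0.26 for FADD and 0.43 for TNFRSF1A (adjusted p = 0.0568), with RIPK1 at 0.40 (adjusted p = 0.0530). Of the 9 members 5 were lower in VHD animals, against 65.2% of all genes; after rescaling BCL2 (0.026), TRADD (0.082) and XIAP (0.078) turned from lower to higher, and XIAP stood at 0.12 without VHD 4.

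Cell type markers moved with this contrast. The medium spiny neuron markers summed to 12921, 11150, 12848 and 11341 TPM in the HD animals and to 7777, 4334, 6501 and 7439 TPM in the VHD animals, without overlap. The 8 astrocyte markers, led by GFAP, summed to 2187 to 3858 TPM in HD and 4921 to 7817 TPM in VHD animals, and the 10 microglia markers, led by C1QB, to 393 to 508 TPM and 515 to 899 TPM, again without overlap. The astrocyte list did not move as 1 block. GFAP averaged 1171 TPM in HD and 2911 TPM in VHD animals and S100B 467 and 1007 TPM, but SLC1A2 stood at 491 and 541 TPM and SOX9 at 37.9 and 31.3 TPM. Nor were the other lists even. Among the medium spiny neuron markers PPP1R1B averaged 3558 TPM in HD and 1828 TPM in VHD animals, but TAC1 584 and 549 TPM. Among the microglia markers AIF1 averaged 31.4 and 70.5 TPM, but CX3CR1 29.2 and 31.5 TPM. Of all genes, 17.9% had every VHD animal below every HD animal, and 5.39% had every VHD animal above. Every marker of the 3 lists averaged 1 TPM or more. In tissue pieces fewer cells of a type and less RNA per cell cannot be told apart. The part of cell composition in the differences of CASP8, TNFSF10 and FADD was not tested.

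Across all 24 animals the members differed in how they followed these markers. TNFRSF1A was higher where the medium spiny neuron sum was lower, with Pearson's r = −0.84 and Spearman's rho = −0.80 on log2 values (n = 24, a description without a test), and r = −0.76 without the 3 animals that stood apart. It was higher where the microglia sum (r = 0.79, rho = 0.80) and the astrocyte sum (r = 0.78, rho = 0.72) were higher. CASP8 followed the astrocyte (r = 0.66, rho = 0.71) and microglia sums (r = 0.64, rho = 0.71). TRADD ran the other way, at r = −0.60 and rho = −0.49 with the astrocyte sum. With the interferon-stimulated sum TNFRSF1A had r = 0.71 and rho = 0.72, CASP8 r = 0.57 and rho = 0.49, RIPK1 r = 0.55 and rho = 0.43 and TNFSF10 r = 0.42 and rho = 0.44, while TRADD had r = −0.68 and rho = −0.64, its strongest value of the 10 lists. CFLAR was nearly unrelated to the medium spiny neuron (r = 0.13, rho = 0.12), astrocyte (r = −0.14, rho = −0.20) and microglia sums (r = −0.19, rho = −0.24). Of the 10 lists CFLAR was closest to the pericyte and smooth muscle markers (r = 0.50, rho = 0.48, and r = 0.39 without the 3 animals). TNFSF10 was also closest to that list (r = 0.47, rho = 0.47), followed by the astrocyte sum (r = 0.44, rho = 0.36). BCL2 (r = 0.58, rho = 0.56) and XIAP (r = 0.51, rho = 0.49) were closest to the pericyte and smooth muscle list as well. All these values share a fixed total per animal, so that more of one class of transcripts leaves less for the others.

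**Figure D3:**
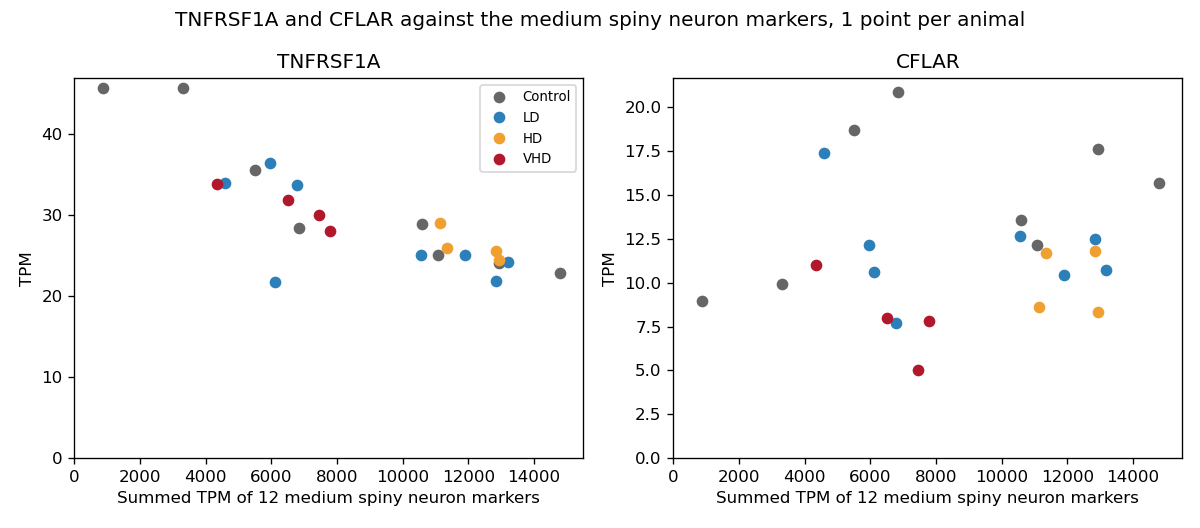
TPM of TNFRSF1A and CFLAR (vertical axes) against the summed TPM of 12 medium spiny neuron markers (horizontal axis), 1 point per animal, coloured by drinking category. TNFRSF1A lies higher where the marker sum is lower (r = −0.84 on log2 values, n = 24) and CFLAR shows no such slope (r = 0.13); the point farthest left is Control 6 at 881 TPM.

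Markers of blood and vessel cells were also summed. Of the 7 T or NK cell markers, 4 had a mean under 1 TPM (CD2, NKG7, GZMB and IL2RB), and the list summed to 6.47 to 87.3 TPM, with CD3E at a mean of 22.9 TPM and CD3D at 19.5 TPM. The sum followed that of the medium spiny neuron markers (r = 0.94, rho = 0.93, n = 24), so it was not read as a measure of blood cells. The 2 red blood cell markers in the table, HBB and ALAS2, summed to 0.165 to 22.4 TPM. The 7 endothelial markers in the table, led by CLDN5, summed to 102 to 164 TPM in controls, 76.7 to 125 TPM in LD* and 95.3 to 144 TPM in HD* animals, and the 7 pericyte and smooth muscle markers, led by RGS5, to 112 to 154, 80.3 to 145 and 92.5 to 137 TPM. The lowest value of both vascular lists was that of LD 5, which had 11.2 TPM of TNFSF10. LD 2, with the lowest TNFSF10 of the LD* animals (10.5 TPM), had an endothelial sum of 106 TPM. Its pericyte and smooth muscle sum was 135 TPM. With the endothelial sum TNFSF10 had r = 0.24 and rho = 0.13 (n = 24).

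Daily ethanol intake was set against expression within LD* and within HD* animals, since intake separates the groups. Among the HD* animals the slope of CFLAR was −0.43 log2 units per g/kg (SE 0.39, limma adjusted p = 0.708) and that of TNFSF10 was 0.77 (SE 0.48, adjusted p = 0.692). Among the LD* animals the slopes were −0.044 (SE 0.24, adjusted p = 0.969) and 0.23 (SE 0.30, adjusted p = 0.891). No member passed in either group, and 0% of all genes did (453 genes in LD* and 525 in HD* animals had an unadjusted p under 0.05). With 1 animal left out the HD* slope of CFLAR ran from −0.74 without VHD 1 to −0.25 without VHD 4, and that of TNFSF10 from 0.31 without HD 3 to 1.20 without VHD 1. The LD* slopes had no stable sign. That of CFLAR became 0.049 after TMM rescaling, 0.013 without LD 2 and 0.076 without LD 6, and that of TNFSF10 became −0.034 with cohort as a covariate and −0.44 without the 2 animals of cohort 4, which had the lowest intakes at 0.47 and 1.24 g/kg. The slopes of the remaining members ran from −0.45 to 0.19 in LD* and from −0.25 to 0.79 in HD* animals. The extremes of −0.45 and 0.79 were both those of CASP8. The HD* slope of XIAP, −0.25, was −0.50 with cohort as a covariate and −0.087 without VHD 4. That of TRADD in HD* animals (−0.15) turned to 0.028 with TMM rescaling. Without cohort 4 the LD* slope of CASP8 was −0.095 and that of TNFRSF1A, at −0.24 with all animals, was −0.0074. With cohort as a covariate they moved the other way, to −0.65 for CASP8 and −0.43 for TNFRSF1A. In LD* animals the highest slope of these remaining members, that of RIPK1 (0.19), turned to −0.44 with cohort as a covariate and −0.25 without cohort 4. TRADD (0.0058) turned to −0.076 and −0.32 in these settings, FADD (−0.16) to 0.0096 with the covariate and XIAP (−0.13) to 0.085 without cohort 4.

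**Figure D4:**
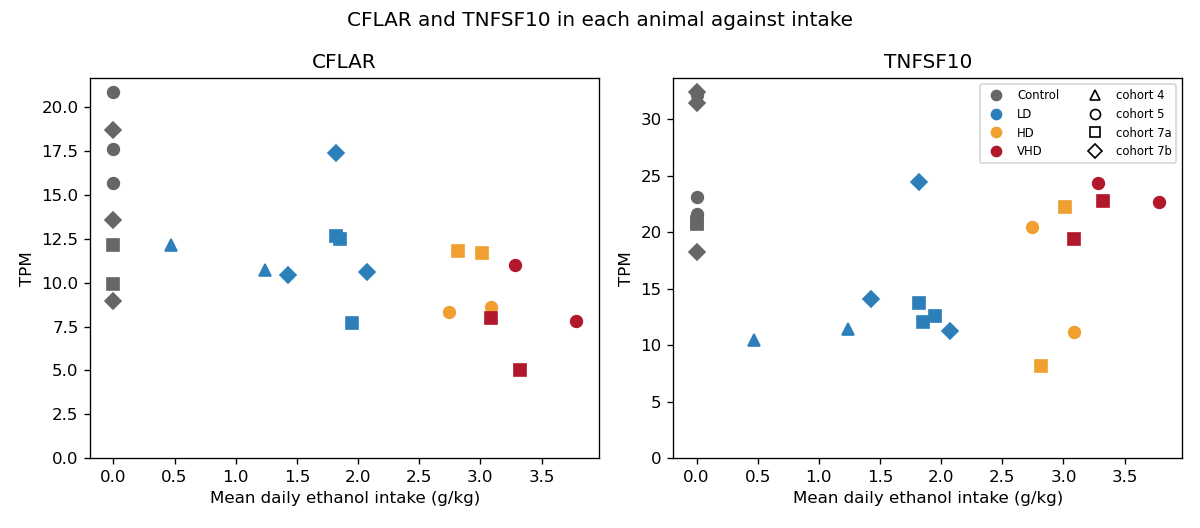
TPM of CFLAR and TNFSF10 (vertical axes) against mean daily ethanol intake in g/kg (horizontal axis), 1 point per animal, coloured by category and shaped by cohort. The LD animal with high values in both panels is LD 4, at 17.4 TPM of CFLAR and 24.5 TPM of TNFSF10, and intake ranges of LD and HD animals do not overlap (0.47 to 2.07 and 2.74 to 3.09 g/kg).

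The members did not vary together as a block. Over 24 animals the closest pair was CFLAR and XIAP, with r = 0.70 and rho = 0.68 on log2(TPM + 1), r = 0.58 without the 3 animals that stood apart and r = 0.57 without the 2 animals with the most extreme CFLAR. Among 13636 genes XIAP ranked 648 in closeness to CFLAR. TNFSF10 and RIPK1 followed, with r = 0.66 and rho = 0.70, and RIPK1 ranked 39 in closeness to TNFSF10, while TNFSF10 ranked 281 in closeness to RIPK1. BCL2 and XIAP had r = 0.61 and CASP8 and TNFRSF1A r = 0.56. CFLAR and TNFSF10 had r = 0.32 and rho = 0.37, and r = 0.47 without the 3 animals, and CFLAR and CASP8 r = 0.058. The lowest value was that of CASP8 and TRADD, at r = −0.58. Without the 3 animals it was −0.63, and TRADD and XIAP, at r = −0.25 before, had the lowest value with −0.66. Without them CASP8 and TNFRSF1A stood at 0.69 and TNFSF10 and RIPK1 at 0.70, the highest value. After centring on group means CFLAR and XIAP had r = 0.65, TNFSF10 and RIPK1 0.57 and CFLAR and TNFSF10 0.22. BCL2 and XIAP then had 0.55, CASP8 and TNFRSF1A 0.60, CFLAR and CASP8 −0.058 and CASP8 and TRADD −0.58. These are descriptions over 36 pairs, with n = 24 and no test.

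The genes most like CFLAR over the 24 animals were CCDC82 (r = 0.85), STOX1 (r = 0.85), MED13L (r = 0.84), ZNF445 (r = 0.82) and UNC80 (r = 0.82), and after centring on group means the values were 0.88, 0.80, 0.82, 0.82 and 0.80. The genes most like TNFSF10 were LAYN (r = 0.80), PTGES (r = 0.80), ADCY4 (r = 0.78), NLRC5 (r = 0.77) and RBM3 (r = 0.76), with 0.75, 0.65, 0.68, 0.67 and 0.75 after centring. No gene was among the 5 closest to both.

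The wider pathway was read from 7 lists with 81 genes, of which 79 were in the table and 69 averaged 1 TPM or more. In HD* animals against controls 0 of the 69 passed (limma), and 54 were lower with a median log2 difference of −0.12, equal to that of all genes; after TMM rescaling 36 were lower and 33 higher. In LD* animals against controls 0 passed and 50 were lower, with a median of −0.064 against −0.025 for all genes, and with rescaling 40 were lower. In HD* against LD* animals 0 passed and 43 were lower, with a median of −0.046 against −0.084, and rescaling turned this to 28 lower and 41 higher. Apart from the members, 3, 2 and 1 genes had an unadjusted p under 0.05 in these comparisons, where 5.68%, 2.84% and 1.08% of all genes did, so they are given as a description. With rescaling the directions of these 6 differences held, but only that of MLKL in LD* animals kept an unadjusted p under 0.05. Others reached it with rescaling alone and were higher, namely BID in HD* animals against controls (0.32) and against LD* animals (0.31), TNFSF10 in HD* against LD* animals (0.48) and TAB1 in LD* animals against controls (0.16). MLKL, the effector of necroptosis, averaged 2.23 TPM in controls, 1.36 TPM in LD* and 1.62 TPM in HD* animals, log2 differences from controls of −0.46 (SE 0.12) and −0.29 (SE 0.12). TRAF3 (−0.38, SE 0.16) and the proapoptotic BCL2L11 (−0.31, SE 0.13) had such differences in HD* animals, MCL1, an antiapoptotic relative of BCL2, in LD* animals (−0.23, SE 0.080), and DFFA, the inhibitor of the nuclease that cuts DNA in apoptosis, between HD* and LD* animals (−0.21, SE 0.10).

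Between VHD and HD animals 3 of the 69 pathway genes passed, or 1 higher and 2 lower, where 14.6% of all genes passed; 40 of the 69 were lower, with a median of −0.047 against −0.17 for all genes, and 29 were higher. After TMM rescaling 8 passed, or 6 higher and 2 lower, where 19% of all genes passed, and 19 of the 69 were lower. PEA15, a death effector domain protein that binds FADD and caspase-8, was the most abundant gene of all 7 lists, at a mean of 1694 TPM. PEA15 had 1182 to 1775 TPM in HD and 1867 to 2188 TPM in VHD animals, a log2 difference of 0.50 (SE 0.15, limma adjusted p = 0.0424). PARP1, a DNA repair enzyme, had 67.9 to 93.4 TPM in HD and 38.3 to 63.9 TPM in VHD animals (−0.74, SE 0.17, adjusted p = 0.0191). CYLD, a deubiquitinase that acts on RIPK1, had 24.5 to 32.5 TPM in HD and 10.4 to 23.0 TPM in VHD animals (−0.79, SE 0.24, adjusted p = 0.0491). The 4 VHD animals lay above all HD animals for PEA15, as in 5.39% of all genes, and below them for PARP1 and CYLD, as in 17.9%. Each call was lost without single animals, although the differences stayed in place, from 0.41 to 0.61 for PEA15, −0.87 to −0.63 for PARP1 and −0.95 to −0.59 for CYLD with 1 animal left out. For PEA15 the adjusted p was 0.0888 without HD 1, 0.148 without HD 3, 0.120 without HD 4, 0.0682 without VHD 1, 0.106 without VHD 3, 0.0673 without VHD 4 and 0.0628 after TMM rescaling, where the difference was 0.71. For PARP1 it was 0.0550 without HD 2, 0.0654 without HD 3, 0.0665 without HD 4 and 0.0747 without VHD 3. For CYLD it was 0.118 without HD 1, 0.101 without HD 2, 0.138 without HD 3, 0.0809 without HD 4, 0.156 without VHD 3 and 0.0780 without VHD 4. These differences stood beside those of the neuronal, astrocyte and microglia markers given above, whose part was not tested.

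Between VHD and HD animals 5 of the 69 pathway genes were higher and 10 lower with an unadjusted p under 0.05 (limma). Of all genes 32.7% had such a p. With TMM rescaling 16 pathway genes were higher and 7 lower, where 2420 of all 13637 genes were higher and 2597 lower. Of the pathway genes with such a p before rescaling, 10 are given here that did not pass. Their limma adjusted p ran from 0.0549 for BCL2L1 to 0.150 for TAB3. Higher in VHD animals were the death receptor TNFRSF25 (log2 difference 0.57, SE 0.24) and BCL2A1, an antiapoptotic relative of BCL2 (0.85, SE 0.38). Lower were BCL2L1, which encodes BCL-xL (−0.41, SE 0.13), MAP3K5, which encodes the kinase ASK1 (−0.73, SE 0.25), TNFRSF21 (−0.61, SE 0.23), AIFM1 (−0.44, SE 0.17), BIRC3 (−0.54, SE 0.22), CASP2 (−0.53, SE 0.22), TAB1 (−0.36, SE 0.16) and TAB3 (−0.61, SE 0.28). The directions of these 10 genes held after TMM rescaling, which lowered the size of the 8 negative differences.

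Within the remaining lists the pathway was represented unevenly. By mean over all animals, FAF1 was the most abundant among adaptors and kinases (42.9 TPM) and PARP1 among caspases and substrates (68.9 TPM). BOK was so in the BCL2 family (130 TPM) and DIABLO, an antagonist of XIAP, among the genes of mitochondrial release (159 TPM). The lead of BOK did not hold by median in every group. Its medians were 112, 97.7 and 115 TPM in controls, LD* and HD* animals, and those of BCL2L1 were 113, 122 and 108 TPM. CASP10, the closest relative of CASP8, averaged 0.739 TPM and RIPK3, the kinase of necroptosis, 0.924 TPM.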

How the data were processed

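The authors prepared polyA-selected libraries of NAcc core RNA from 24 animals, used STAR 2.5.2b for alignment to MacaM, HTSeq 0.6.1p1 for gene counts and DESeq2 for their tests, as far as the submitters' processing notes and the study's methods state. The deposited values were taken as TPM made by the authors, although their name speaks of normalized counts. How counts became TPM and which transcript lengths were used is not given in the sources used here. The public record describes single-end libraries without strand and the paper stranded paired-end libraries; the paper's description was taken, and reads of overlapping antisense genes may not be fully separated. Depth cannot be read from TPM, so no counting error is given, and tests on counts were not run. The study's own test on counts called genes in HD* animals against controls and, far fewer, against LD* animals. With limma on TPM none passed there.

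Groups, cohorts and intake came from the labels. The members and gene lists were chosen with earlier results of these data known. Values were transformed to log2(TPM + 1), and the 13637 genes that averaged 1 TPM or more were fitted in R 4.3.3 with limma 3.58.1, using its moderated statistics with an intensity trend, 2-sided p-values and Benjamini-Hochberg adjustment. One model held controls, LD* and HD* animals; others held the 8 HD* animals (VHD against HD), the 16 drinkers (a slope on intake in each group) and, for the interaction, cohorts 5 and 7a without LD* animals. The test was also run on simulated data, but no result of that is given here and nothing is read from it. Named were all members in every group; CFLAR, TNFSF10 and members with an unadjusted p under 0.05 in the later models; of the pathway lists up to 3 genes per list and comparison with an unadjusted p under 0.05 and the most abundant gene; and the 5 genes with the highest Pearson correlation with CFLAR and with TNFSF10. FADD in VHD against HD animals and the ligands, TRAIL receptors, CASP10, RIPK3 and, with rescaling, BID and TAB1 were named after their values were seen.

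Alternatives were pseudocounts of 0.1 and 8, a filter of 10 TPM and none, TMM rescaling (30% trimmed by log ratio and 5% by level), only the compared groups, cohort as a covariate, shared cohorts only, no cohort 4 for the LD* slope, and each animal left out in turn. Leaving out Control 6, Control 8 and VHD 4 was added after the data were seen. Other summaries used Python 3.11.15, numpy 2.4.6, pandas 2.3.3, scipy 1.17.1 and matplotlib 3.10.9. All 10 member symbols occur in the RefSeq annotation, which is on another build than MacaM, so no coordinates are given. Of the lists TNFRSF10D, OTULIN, PECAM1, HBA1, HBA2 and HBD were not analysed here.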

Additional observations from a re-analysis of the deposited data

Results flagged for a closer look

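The highest and lowest animal of each group of 8 or 4 was compared with the others for every member. Chance sets apart an animal in about 1 in 20 groups, and 3 of 50 groups had one. TNFSF10 in LD 4 of cohort 7b was 24.5 TPM, against 10.5 to 14.1 TPM in the other 7 LD* animals. LD 4 also had the highest cortical excitatory neuron sum, 834 TPM, and the highest CFLAR of its group. Its endothelial sum (125 TPM) and its pericyte and smooth muscle sum (145 TPM) were the highest among LD* animals. CASP8 in VHD 2 of cohort 5 was 4.32 TPM, against 1.26 to 2.34 TPM in the other 7 HD* animals. RIPK1 in the same animal was 6.95 TPM, against 3.93 to 4.95 TPM in the others. VHD 2 had the highest interferon-stimulated sum of all animals, 1437 TPM. The part of these marker sums in the values of LD 4 and VHD 2 was not tested.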

How the results depend on the processing

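With limma 0 genes passed in every setting tried for the 3 group comparisons, both slopes and the interaction, where, leave-one-out settings aside, 67 to 1605 genes had an unadjusted p under 0.05. For VHD against HD the count ran from 476 to 4651 when 1 animal was left out. CFLAR in HD* animals against controls stayed between −0.72 and −0.53 and TNFSF10 in LD* animals against controls between −0.95 and −0.78 when 1 animal was left out, and no member's description in these comparisons moved by as much as 1 SD between animals in any setting.

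Several values changed sign, which a move of less than 1 SD does not exclude. With 1 animal left out FADD in HD* animals against controls ran from −0.12 to 0.030. CASP8 in LD* animals against controls ran from −0.060 to 0.13. In HD* against LD* animals BCL2 was 0.064 after TMM rescaling, 0.020 without the 3 animals standing apart and between −0.053 and 0.043 with 1 animal left out, and TRADD lay between −0.024 and 0.077 with 1 animal left out. The CFLAR slope within LD* animals was 0.049 after TMM rescaling and ran from −0.13 to 0.076 with 1 animal left out. The TNFSF10 slope there was −0.034 with cohort as a covariate and −0.44 without cohort 4. The TNFSF10 interaction was −0.011 without the 3 animals, a setting added after the data were seen. The cause was not tested. The call of CASP8 in VHD against HD animals appeared with TMM rescaling alone and that of FADD without VHD 2 alone. Depth per animal is not given, so genes near 1 TPM, CASP8 among them, are the least certain. With 8 animals a group and 4 in HD and VHD, a p that misses the threshold does not show that levels were alike.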
